A study of Rattus norvegicus with 170 samples.

Results

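Single cells from dispersed rat islets were examined for 10 immediate early genes, *Fos*, *Fosb*, *Jun*, *Junb*, *Jund*, *Egr1*, *Atf3*, *Ier2*, *Btg2* and *Nr4a1*. They were chosen by name, with earlier results of these data known, and make up 10 of the 24113 genes of the matrix. Immediate early genes are transcribed soon after a stimulus from factors already present in the cell, and most encode transcription factors with short-lived transcripts. Fos and Jun proteins pair to form AP-1, and Atf3 belongs to the same leucine zipper family. In islet cells several of these genes respond to calcium and cyclic AMP signals, and in many tissues they also respond to enzymatic dissociation.

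Whole islets of 8-week-old male wild-type Sprague Dawley rats were held for 48 h in 5.5 mM glucose with 0.1% DMSO or with 3 μM GNF4877. The islets were dispersed for 5 min in 0.05% trypsin, and cells were captured on a microfluidic chip and read with single 50 bp reads. Each treatment was 1 sample of many cells, so treatment, chip and sequencing lane cannot be told apart, and no test between treatments was made. The methods give each plate its own lane and do not state separate sequencing runs. All cells had been dispersed, so the part of dispersal in any level given below was not tested.

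Cells with *Ins1* of 1000 RPM (reads normalised by all mapped reads in that cell) or more and *Gcg* below it were taken as β cells, and the reverse as α cells. This gave 56 DMSO β cells, 58 GNF4877 β cells, 5 DMSO α cells and 18 GNF4877 α cells, 137 of 170 cells in all. A further 22 DMSO cells and 1 GNF4877 cell held both hormones, and 3 DMSO cells and 7 GNF4877 cells held neither. The groups differed in how much was read in a cell. DMSO β cells had a median of 1182924 mapped reads and 8809 genes read, and GNF4877 β cells had 1420597 mapped reads and 7059.5 genes. DMSO α cells had 961560 reads and 7026 genes, and GNF4877 α cells had 1388772 reads and 5864.5 genes. After thinning to 100000 reads on listed transcripts, which left out 2 DMSO β cells and 1 GNF4877 β cell with fewer, the median number of genes was 6447.5 in DMSO β cells and 4940.0 in GNF4877 β cells, so DMSO β cells had more genes at equal depth as well.

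In 7 of the 170 cells under 20% of the mapped reads lay on listed transcripts, against a median of 93.9% over all cells. Of these, 3 were DMSO β cells (cells 48, 73 and 80, at 8.99%, 4.65% and 18.9%) and 1 was a GNF4877 β cell (cell 2, at 3.03%). The other 3 held neither hormone. The cells were kept, and the larger differences without them are given below.

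Hormone markers followed the grouping by which the cells were named. The list of 10 β-cell markers had 9 genes in the matrix (*G6pc2* had no entry), and all 9 were read in DMSO β cells with a summed mean of 70700.3 RPM, led by *Ins1* at 45401 RPM. In GNF4877 β cells 8 were read with a sum of 47613 RPM, led by *Ins1* at 28817 RPM, and *Mafa* was not read. All 6 α-cell markers were read in both α groups, with sums of 385867 RPM in DMSO and 284461 RPM in GNF4877, led by *Gcg* in each. The β markers summed to 946 and 392 RPM in these α cells, and the α markers to 128 and 96.3 RPM in DMSO and GNF4877 β cells. Some cells carried markers of another type as well. The pancreatic polypeptide markers passed 1000 RPM in 3 DMSO β, 2 GNF4877 β and 2 GNF4877 α cells. The δ markers passed it in 1 DMSO β cell, 1 GNF4877 β cell and 1 DMSO α cell (cell 33, with 1672 RPM of *Sst*). Duct markers passed it in 1 DMSO β, 1 GNF4877 β and 2 GNF4877 α cells. Mesenchymal markers passed it in 2 DMSO β cells (up to 11922 RPM) and 1 GNF4877 α cell, with a summed mean of 397 RPM in DMSO β cells and 0.598 RPM in GNF4877 β cells.

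Between treatments, the members as a set stood apart from all genes in α cells but hardly in β cells. Comparing mean RPM of GNF4877 β cells with DMSO β cells, 0 of the 10 members were 2-fold or more higher and 1, *Jund*, was 2-fold or more lower. Of 13868 genes compared, 11.3% were higher and 18.3% lower by the same measure. The median log2 ratio was −0.45 for the members and −0.09 for all genes compared. In α cells all 10 members were 2-fold or more lower with GNF4877 and 0 higher, while 35.6% of 12508 genes were higher and 23.9% lower. The median log2 ratio there was −1.84 for the members and 0.29 for all genes. *Junb* was at the line, 2.01-fold, and the count was 8 without cell 33 and 9 without cell 94 of the DMSO α cells.

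Between cell types the members differed from all genes most clearly in DMSO. In DMSO α cells 9 of 10 members were 2-fold or more higher than in DMSO β cells and 0 were lower, where 12.5% of 13632 genes were higher and 47.2% lower. The median log2 ratio was 1.95 for the members and −0.88 for all genes. Without cell 94 the count was 7 higher and 1 lower, and without cell 33 8 higher and 1 lower. With GNF4877, 0 members were higher in α than in β cells and 2, *Ier2* and *Nr4a1*, were lower, beside 14% of 13418 genes higher and 34.4% lower. The median log2 ratio there was 0.61 for the members, 7 of 10 above 0, and −0.45 for all genes. Each group entered 2 of these 4 comparisons, so both that include the 5 DMSO α cells rest on the same high values in those cells. The α comparisons also weigh 5 cells against 18 or 56.

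The measure mattered for these counts. When log2(RPM + 1) was averaged over cells in place of RPM, 4 of 10 members were 2-fold or more lower in GNF4877 β cells than in DMSO β cells. By that measure 1.83% of all genes were higher and 21.1% lower, and the median difference was −0.90 for the members and −0.39 for all genes. For GNF4877 over DMSO α cells it called 10.2% of genes higher and 29.5% lower, and the members were again 10 lower. For DMSO α over DMSO β cells the shares were 10.3% and 28.9% with 8 members higher, and for GNF4877 α over β cells 3.29% and 19.3% with 1 member higher. In that last comparison the median difference was 0.03 for the members, 5 of 10 below 0, and −0.25 for all genes, so the set stood apart less by this measure. Mean RPM is carried by the few cells with most reads of a gene, and the mean of logs depends more on how many cells have any.

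**Figure D1:**
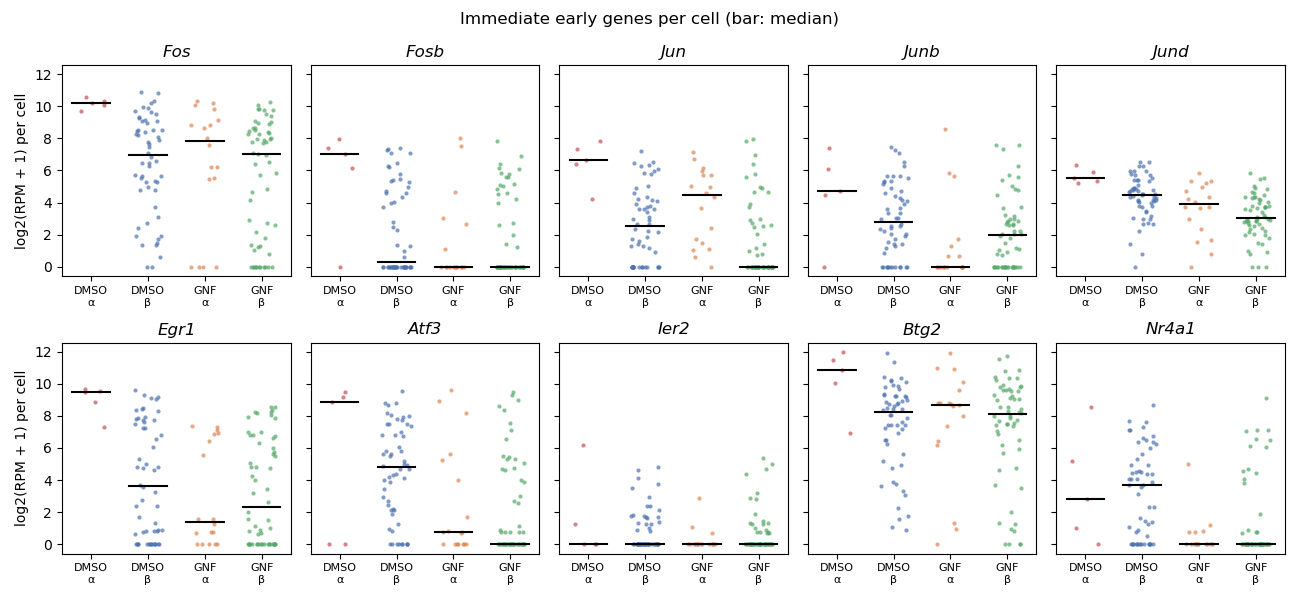
Level of each immediate early gene in single cells, as log2(RPM + 1). Each point is 1 cell and the bar is the median of the group. DMSO α cells n = 5, DMSO β cells n = 56, GNF4877 (GNF) α cells n = 18, GNF4877 β cells n = 58. Each treatment is 1 sample.

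*Fos* was read in most cells of every group and was highest in DMSO α cells. It was read in 54 of 56 DMSO β cells (96.4%, 95% interval 87.7 to 99.6, counting error only) and in 47 of 58 GNF4877 β cells (81%, 68.6 to 90.1). Levels ran from 0 to 1936 RPM in DMSO β cells (median 123, mean 330.1) and from 0 to 1211 RPM in GNF4877 β cells (median 128, mean 251), and the difference of mean logs was −0.99. Without the cells with few listed reads the medians were 176 and 130.1 RPM. The 5 DMSO α cells (cells 33, 67, 89, 90 and 94, in this order below) had 1179, 1106, 832, 1303 and 1515 RPM. GNF4877 α cells had 0 to 1315 RPM (median 228, mean 392), and 14 of 18 had a read. The log2 ratio of GNF4877 to DMSO was −1.60 in α cells and −0.39 in β cells. The groups overlapped, since 6 DMSO β, 6 GNF4877 β and 4 GNF4877 α cells reached the lowest DMSO α value. The mean in DMSO α cells was thus 3.59-fold that of DMSO β cells, with every DMSO α cell in the upper part of the range. In sum 21552 *Fos* reads were counted in DMSO β cells (exact Poisson 95% interval 21265 to 21842) and 5097 in DMSO α cells (4958 to 5239). These intervals cover counting error only, and amplified reads make them too narrow.

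*Fosb* was read in fewer cells, in 28 of 56 DMSO β cells (50.0%, 36.3 to 63.7) and 22 of 58 GNF4877 β cells (37.9%, 25.5 to 51.6). Means were 24.8 RPM in DMSO β cells (0 to 167, median 0.273) and 17.1 RPM in GNF4877 β cells (0 to 226, median 0). The DMSO α cells had 70.6, 129, 0, 172 and 247 RPM, and GNF4877 α cells 0 to 259.7 RPM (median 0, mean 26.7, 6 of 18 with a read). The order of the means followed that of *Fos*, with the lower 3 close together. The log2 ratio of GNF4877 to DMSO was −2.17 in α cells and −0.51 in β cells, and a single cell gave 54.1% of the GNF4877 α total.

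*Jun* was read in 39 of 56 DMSO β cells (69.6%, 55.9 to 81.2) and 24 of 58 GNF4877 β cells (41.4%, 28.6 to 55.1), so the share was lower with GNF4877. The means were nonetheless near each other, 18.1 RPM (0 to 149, median 4.74) and 16.6 RPM (0 to 244, median 0), a log2 ratio of −0.12. The sign of this ratio was not stable. It was −1.04 as a difference of mean logs and −0.49 without GNF4877 cell 1, but 0.65 when each cell was scaled to its reads on listed transcripts and 0.24 with a hormone minimum of 10000 RPM. The scaling raises GNF4877 cell 2 most (3.03% listed reads, 24.7 RPM of *Jun*), and the scaled ratio without this cell was not computed. DMSO α cells had 100.2, 82.9, 228, 17.8 and 159.8 RPM (mean 117.7), and GNF4877 α cells 0 to 139 RPM (median 21.1, mean 33.6), with a read in 17 of 18. By mean RPM *Jun* had the largest log2 ratio of the members for DMSO α over DMSO β cells, 2.63. This rank did not hold without cell 89 (2.25, with *Fosb* at 2.60) or by mean logs (3.89, with *Egr1* at 4.97). For *Jun* 13 DMSO β cells and 10 GNF4877 α cells reached the lowest DMSO α value.

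*Junb* had means of 22.2 RPM in DMSO β cells (0 to 173, median 6.04) and 17.1 RPM in GNF4877 β cells (0 to 192, median 2.89), with a read in 78.6% (65.6 to 88.4) and 65.5% (51.9 to 77.5) of cells. The DMSO α values were 66.2, 25, 0, 20.7 and 165 RPM. GNF4877 α cells had 0 to 376 RPM (median 0, mean 27.1, 7 of 18 with a read), and 1 cell gave 77% of the total. Its mean ratios in α cells therefore hung on single cells in both groups, while 4 of 5 DMSO α cells and 3 of 18 GNF4877 α cells had 10 RPM or more and the difference of mean logs was −3.16. The log2 ratio of GNF4877 α to DMSO α cells was −1.01, and −0.04 without cell 94. That of DMSO α to DMSO β cells was 1.28, and 0.32 without cell 94.

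*Jund* was read in nearly every β cell, in 55 of 56 with DMSO (98.2%, 90.4 to 99.95) and 55 of 58 with GNF4877 (94.8%, 85.6 to 98.9). It was the only member 2-fold or more lower in GNF4877 β cells by mean RPM, 11.7 RPM (0 to 57, median 7.15) against 27.7 RPM (0 to 92.3, median 21.6). The 2.26-fold difference (log2 −1.17) was −1.24 as a mean of logs. It fell short of 2-fold with a pseudocount of 10 RPM (−0.80) and with scaling to listed transcripts (−0.91). That scaling raises GNF4877 cell 2 most (3.03% listed reads, 6.16 RPM of *Jund*), and the scaled ratio without this cell was not computed. After thinning it was read in 50.9% of GNF4877 and 90.7% of DMSO β cells. DMSO α cells had 35.7, 44.6, 39.5, 59.2 and 80.6 RPM, and GNF4877 α cells 0 to 56.2 RPM (median 14, mean 18.4). In both cell types *Jund* was thus lower with GNF4877, by a log2 ratio of −1.45 in α cells, and 15 DMSO β and 3 GNF4877 β cells reached the lowest DMSO α value.

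*Atf3* was read in 47 of 56 DMSO β cells (83.9%, 71.7 to 92.4) and 28 of 58 GNF4877 β cells (48.3%, 35 to 61.8). Means were 95 RPM (0 to 743, median 26.5) and 57.5 RPM (0 to 721, median 0). The log2 ratio of the means was −0.71 and the difference of mean logs −2.29, so the size of the difference depended on the measure. A single GNF4877 β cell, cell 64, held 21.6% of the total, and without it the ratio was −1.04. The DMSO α values were 572, 471, 0, 0 and 712 RPM, and GNF4877 α cells 0 to 802 RPM (median 0.705, mean 93.9, 11 of 18 with a read).

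*Egr1* was read in 42 of 56 DMSO β cells (75%, 61.6 to 85.6) and 38 of 58 GNF4877 β cells (65.5%, 51.9 to 77.5). Means were 120.4 RPM (0 to 794, median 11.5) and 66.3 RPM (0 to 381, median 4.11), a log2 ratio of −0.85. All 5 DMSO α cells had *Egr1*, at 708, 466, 157, 740.3 and 810.3 RPM, and in GNF4877 α cells the range was 0 to 161 RPM (median 1.65, mean 45.9). The α groups hardly overlapped, with a log2 ratio of −3.62 for GNF4877 over DMSO, and only 2 of 18 GNF4877 α cells reached the lowest DMSO α value. In DMSO β cells 16 of 56 did so.

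*Nr4a1* was read in 41 of 56 DMSO β cells (73.2%, 59.7 to 84.2) and 18 of 58 GNF4877 β cells (31%, 19.5 to 44.5). Means were 39.9 RPM (0 to 417, median 12) and 23.8 RPM (0 to 549.6, median 0). As with *Atf3* the difference of mean logs, −1.82, was larger than the log2 ratio of means, −0.72. GNF4877 β cell 14 alone held 39.8% of the total, and without it the ratio was −1.39. In DMSO α cells there were 35.7, 0, 1.04, 5.92 and 382 RPM, so cell 94 carried 90% of that group. GNF4877 α cells had 0 to 30.8 RPM (median 0, mean 1.90, 5 of 18 with a read), 18 reads in all (Poisson interval 10.7 to 28.4). *Nr4a1* was lower in GNF4877 than in DMSO α cells with and without cell 94 (log2 −4.89 and −2.01). For DMSO α over DMSO β cells the sign depended on that cell, 1.07 with it and −1.81 without.

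*Ier2* was read in few cells, in 22 of 56 DMSO β cells (39.3%, 26.5 to 53.2) and 20 of 58 GNF4877 β cells (34.5%, 22.5 to 48.1). Means were 2.33 RPM (0 to 27.1, median 0) and 2.60 RPM (0 to 40.4, median 0), a log2 ratio of 0.11, or −0.14 as a mean of logs. In the DMSO α group the values were 72.3, 0, 0, 0 and 1.39 RPM. GNF4877 α cells had 0 to 6.25 RPM (median 0, mean 0.440), 10 reads in all (4.80 to 18.4). The α comparisons of *Ier2* thus rest on cell 33, which also carried *Sst*. Without it the log2 ratio of GNF4877 α to DMSO α cells was 0.10 in place of −3.45, and that of DMSO α to DMSO β cells −1.31 in place of 2.24.

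*Btg2* was read in all 56 DMSO β cells (100%, 93.6 to 100) and 54 of 58 GNF4877 β cells (93.1%, 83.3 to 98.1). Its means did not differ much between treatments, 484 RPM (0.868 to 3957, median 299.7) and 532 RPM (0 to 3437, median 276), a log2 ratio of 0.14 and a difference of mean logs of −0.18. In DMSO α cells the values were 2861, 1042, 121, 1895 and 3993 RPM, and GNF4877 α cells 0 to 3831 RPM (median 413, mean 715, 17 of 18 with a read). The log2 ratios were −1.47 for GNF4877 over DMSO α cells and 2.03 for DMSO α over DMSO β cells. Here the groups overlapped widely, and 39 DMSO β cells and 13 GNF4877 α cells reached the lowest DMSO α value.

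Leaving out the cells with few listed reads changed the count of members in 1 comparison. *Nr4a1* then had a log2 ratio of 0.99 for DMSO α over DMSO β cells, which left 8 members 2-fold or more higher. *Jund* remained the only member past 2-fold between β groups, at −1.23. The median of *Egr1* in DMSO β cells was then 24.2 in place of 11.5 RPM, that of *Fosb* 0.545 in place of 0.273 RPM, and the median rho of the member pairs in these cells 0.31 in place of the 0.35 given below.

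More members were read per cell in DMSO than in GNF4877. The median was 8 of 10 in DMSO β cells (4 to 10) and 6 in GNF4877 β cells (3 to 9), and 8 (6 to 10) and 6 (3 to 10) in the α groups. All 10 were read in 9 DMSO β cells and 0 GNF4877 β cells, and 8 or more in 31 of 56 and 11 of 58. After thinning to 100000 reads the medians were 6 and 4 in β cells and 8 and 4 in α cells. Thinned GNF4877 α cells also had fewer genes read in all, by median 4003.5 against 5065 for thinned DMSO α cells. Whether the members in α cells fell by more than other genes was not tested. Fewer genes in all were read in GNF4877 cells, so in β cells the members were set beside all genes. The share of β cells with a read was lower with GNF4877 for 75.1% of 13868 genes, by a median of −7.57 percentage points, and for all 10 members, by a median of −12.6 points. It was lower by 20 points or more for 3 of 10 members and 21.5% of all genes. After thinning, 9 of 10 members and 80.2% of all genes were lower, and 4 of 10 members and 20.7% of all genes were lower by 20 points or more, with medians of −17.4 and −8.19 points. The larger differences were therefore those of *Jun*, *Atf3* and *Nr4a1*, and after thinning of *Junb*, *Jund*, *Atf3* and *Nr4a1*.

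**Figure D2:**
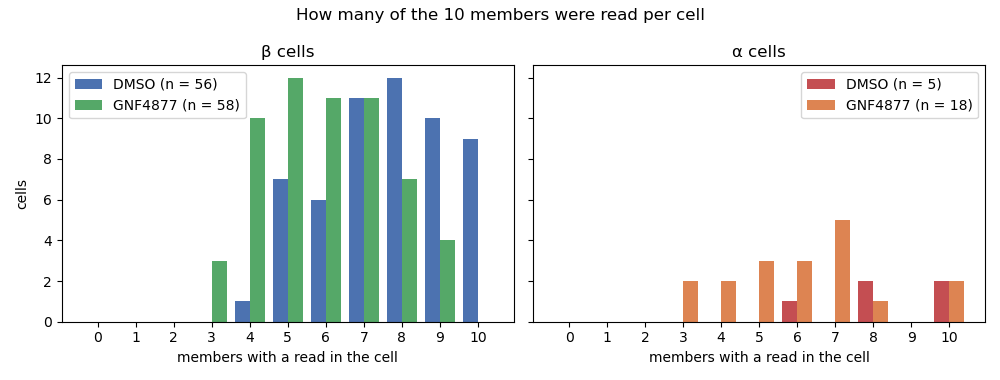
Number of the 10 immediate early genes with a read in each cell, β cells on the left and α cells on the right. Bars count cells. The share of all genes read also differed between treatments.

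At 10 RPM or more, *Fos* with *Egr1* was met in 27 of 56 DMSO β cells, *Fos* without *Egr1* in 17, *Egr1* without *Fos* in 2 and neither in 10. In GNF4877 β cells the counts were 23, 14, 3 and 18 of 58. For *Fos* with *Nr4a1* they were 29, 15, 1 and 11 in DMSO β cells and 10, 27, 3 and 18 in GNF4877 β cells. *Fos* itself reached this level in 44 of 56 and 37 of 58 cells, so many cells with another member have *Fos* in any case. *Fos* was present without *Nr4a1* in more GNF4877 than DMSO β cells. *Nr4a1* itself reached this level in only 13 of 58 GNF4877 β cells, against 30 of 56 with DMSO, and no expected joint count was computed. *Jun* was present without *Fos* in 2 DMSO and 4 GNF4877 β cells (with it in 20 and 8), *Atf3* in 6 and 5 (with it in 30 and 13) and *Fosb* in 2 and 2 (with it in 19 and 15). For *Btg2*, 9 DMSO and 13 GNF4877 β cells had *Btg2* without *Fos* and 4 and 1 had *Fos* without *Btg2*. All 5 DMSO α cells had *Fos*, *Jun*, *Egr1* and *Btg2* at this level.

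Across DMSO β cells the members varied together. The median Spearman rho of the 45 pairs was 0.35 (n = 56 cells, range −0.14 to 0.67), and 26 pairs reached 0.3. Over all pairs of the 8276 genes read in at least 50% of these cells, the median was 0.11 and 9.07% reached 0.3. The closest pairs were *Fos* and *Nr4a1* (0.67), *Egr1* and *Btg2* (0.63), *Fos* and *Fosb* (0.62), *Fos* and *Egr1* (0.60), and *Junb* and *Btg2* (0.60). *Atf3* and *Ier2* had no partner at 0.3, with highest values of 0.28 and 0.09. Much of this was shared with the number of genes read in a cell. The mean log2 level of the 10 members had a rho of 0.66 with genes read and 0.02 with mapped reads. It also had a rho of 0.44 with the percent of reads on listed transcripts (0.34 without the cells with few) and 0.38 with duct markers. Given the number of genes read, the median partial rho of the pairs was 0.18, beside 0.04 for all pairs of genes.

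In GNF4877 β cells the pairs were looser. The median rho was 0.11 (n = 58, range −0.17 to 0.58) and 6 of 45 pairs reached 0.3, where all pairs of 6336 genes had a median of 0.05 and 5.64% reached 0.3. These 6 were *Fos* with *Btg2* (0.58), *Egr1* (0.49), *Fosb* (0.45) and *Nr4a1* (0.30), *Egr1* with *Nr4a1* (0.39), and *Fosb* with *Btg2* (0.38). Given genes read the median was 0.10, beside 0.02 for all pairs. The genes of these background pairs were read in at least 50% of the cells, which holds for 9 of the 10 members in DMSO β cells, 5 in GNF4877 β cells and 6 in GNF4877 α cells, so the member pairs are not a like set. More zeros were present in GNF4877 β cells. The part of ties at 0 in these values was not tested, so the values of the treatments were not taken to be on the same footing. In GNF4877 α cells the median was 0.32 (n = 18, range −0.31 to 0.61), 24 of 45 pairs reached 0.3, and the median was 0.20 to 0.35 with each cell left out and 0.21 without cells carrying *Sst* or *Ppy*. All pairs of 5567 genes had a median of 0.08 with 20.5% at 0.3. The highest were *Fosb* with *Atf3* (0.61) and *Jund* with *Atf3* (0.57). Given genes read, the median partial rho of the member pairs in GNF4877 α cells was 0.29, beside 0.03 for all pairs. In these cells the mean level of the members also had a rho of 0.66 with pancreatic polypeptide markers and 0.61 with duct markers. The duct markers, led by *Krt7*, summed to 334 RPM there, 92.9 RPM in DMSO α cells, where *Krt19* and *Sox9* were not read, and 181 and 231 RPM in DMSO and GNF4877 β cells. All points of a group came from the same chip, and no rho was computed for 5 DMSO α cells.

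**Figure D3:**
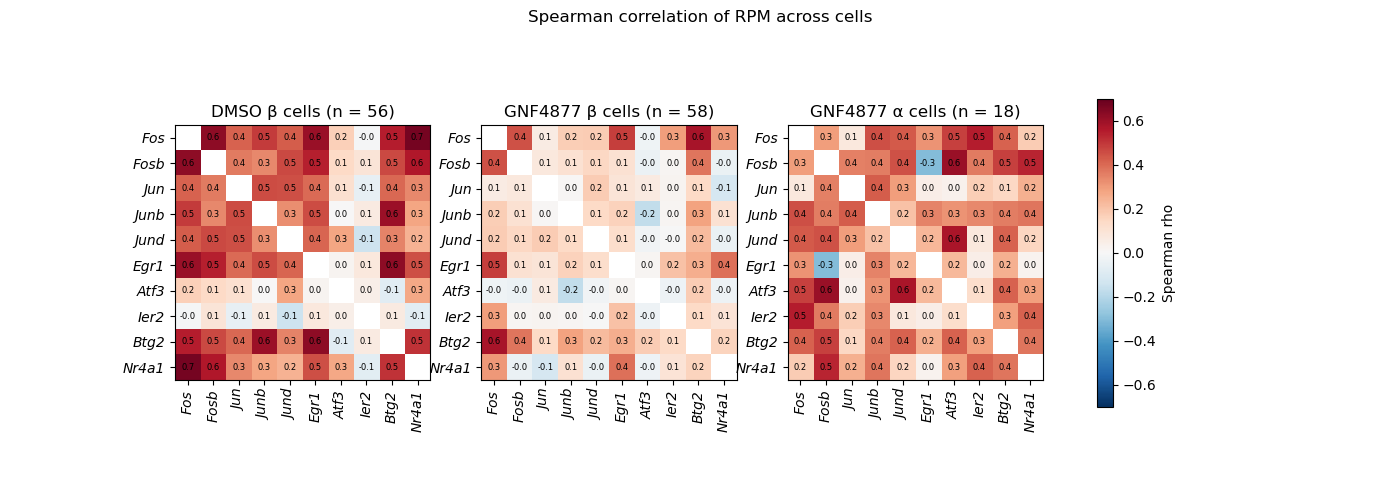
Spearman rho between the 10 immediate early genes across single cells of 1 group. DMSO β cells n = 56, GNF4877 β cells n = 58, GNF4877 α cells n = 18. Cells of a group share a chip and differ in the number of genes read.

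The genes most alike to the members were ranked by rho with their mean log2 level. Of 8267 genes in DMSO β cells the first 10 were *Hmox2-ps1* (0.65), *Zfp36* (0.65), *Tlr6*, *Ccl24*, *Vom2r52*, *Ccl9*, *Zfp668*, *LOC498592*, *Trim31* and *Map3k3* (0.61). Of 6331 genes in GNF4877 β cells they were *Zfp36* (0.65), *Bad* (0.60), *LOC100363521*, *Slc43a2*, *Tuba1a*, *Foxa2*, *Neurod1*, *Abcd3*, *Zmat2* and *Epcam* (0.54). *Zfp36*, itself an immediate early gene, was the 1 gene in both. The other 9 of the DMSO list had a rho of −0.05 to 0.25 in GNF4877 β cells, and the other 9 of the GNF4877 list 0.18 to 0.54 in DMSO β cells. The number of genes read was not removed from these ranks.

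Other immediate early genes were spread to both sides between β groups. Of 44 listed, 33 passed the minimum mean, 7 were 2-fold or more higher and 9 lower with GNF4877 (11.3% and 18.3% of all genes), with a median log2 ratio of 0.12. By mean logs 3 were higher and 5 lower, beside 1.83% and 21.1% of all genes, with medians of −0.16 and −0.39. The highest were *Gadd45b* (28.9 against 1.10 RPM), *Dusp5* (16.8 against 0.922) and *Nfkbia* (332 against 65.9). Single cells gave 46.8% of the GNF4877 total of *Gadd45b*, 24.4% of that of *Dusp5* and 18.5% of that of *Nfkbia*. The lowest were *Zfp36l1*, *Cebpb* (1.63 against 7.31 RPM) and *Myc* (4.31 against 14.8). *Zfp36l1* was read in 0 of 58 GNF4877 β cells, which with an exact 95% interval allows up to 6.16% of cells with a read, and in 8.93% of DMSO β cells, where 1 cell gave 54.4% of its mean of 7.85 RPM. In DMSO α over DMSO β cells 12 of 36 were higher and 12 lower (median 0.58). In GNF4877 over DMSO α cells 8 of 31 were higher and 13 lower (median −0.86), and in GNF4877 α over β cells 8 of 33 higher and 13 lower (median −0.14). Higher and lower among all genes were 12.5% and 47.2% (median −0.88), 35.6% and 23.9% (0.29), and 14% and 34.4% (−0.45). Beside all genes the first 2 of these comparisons leaned the same way as the members. Even so, 12 of 36 and 8 of 31 genes lay 2-fold or more on the other side. By mean logs 5 of 36 and 1 of 31 did so, with medians of 0.42 and −0.62. All genes had 28.9% and 10.2% on that side by mean logs, with medians of −0.40 and −0.37. For GNF4877 α over β cells that measure gave 3 of 33 higher and 5 lower, beside 3.29% and 19.3% of all genes. With the mean level of the members the other immediate early genes had a median rho of 0.36 in DMSO β cells (13 genes, 9 at 0.3 or more), where all genes had 0.19 with 25.7% at 0.3. In GNF4877 β cells the values were 0.15 (10 genes, 2 at 0.3) and 0.09 with 10.9%.

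Upstream kinases and transcription factors leaned lower with GNF4877 in β cells. Of 27 listed, 24 were compared, 0 were 2-fold or more higher and 7 lower, where 11.3% and 18.3% of all genes were, with a median log2 ratio of −0.58 beside −0.09 for all genes. By mean logs 0 were higher and 13 lower, beside 1.83% and 21.1% of all genes, with medians of −1.04 and −0.39. The highest ratios were those of *Map2k2* (0.10), *Elk3* (0.08) and *Crem* (0.01), which is in the list above as well. Their differences of mean logs were −0.79, 0.01 and −0.78. The lowest were *Mapk14* (29.4 against 126 RPM, −2.06), *Rps6ka5* (12.6 against 55.7 RPM, −2.06) and *Mapk8* (15.9 against 41.3 RPM, −1.32). In DMSO α over DMSO β cells 1 of 25 was higher and 12 lower (median −0.93), in GNF4877 over DMSO α cells 4 of 24 and 9 (−0.49), and in GNF4877 α over β cells 0 of 24 and 10 (−0.88). Of all genes 12.5% and 47.2%, 35.6% and 23.9%, and 14% and 34.4% were higher and lower in these comparisons, with medians of −0.88, 0.29 and −0.45. By median the list stood furthest from all genes between the α groups. By mean logs 1 and 7, 0 and 13, and 0 and 5 were higher and lower, in the same order. All genes had 10.3% and 28.9%, 10.2% and 29.5%, and 3.29% and 19.3% by that measure. The median rho of the listed genes with the members was 0.26 in DMSO β cells and 0.19 in GNF4877 β cells.

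Of 14 heat shock genes, 1 was 2-fold or more higher and 3 lower with GNF4877 in β cells (median log2 ratio 0.03), near the 11.3% and 18.3% of all genes. By mean logs 0 were higher and 1 lower, beside 1.83% and 21.1% of all genes. The highest were *Hspd1* (695 against 330.1 RPM, 1.07), *Hspe1* (283 against 196 RPM, 0.53) and *Dnaja1* (544 against 406 RPM, 0.42). The lowest were *Dnajb1* (13.3 against 38.6 RPM, −1.47), *Hspa1a* (5.87 against 17.2 RPM, −1.40) and *Hspb1*. *Hspb1* was read in 0 of 58 GNF4877 β cells (exact 95% interval up to 6.16%) and 7.14% of DMSO β cells. A single cell gave 49.7% of the DMSO total of *Hspa1a*, and another share of 50.2% of its GNF4877 total came from 1 cell. For *Hspb1* 1 cell gave 53.8% of the DMSO total. The ratios of these genes thus rest largely on single cells, and ratios without those cells were not computed. Higher and lower in the other comparisons were 3 and 5 of 14 for DMSO α over DMSO β cells (median −0.57), 2 and 2 of 12 for GNF4877 over DMSO α cells (−0.11), and 1 and 2 of 13 for GNF4877 α over β cells (−0.62). All genes had 12.5% and 47.2%, 35.6% and 23.9%, and 14% and 34.4% in these comparisons. Heat shock genes had a median rho of 0.06 with the members in DMSO β cells and −0.16 in GNF4877 β cells, where all genes had 0.19 and 0.09. *Hspa1b* was the 1 of 10 at 0.3 or more in DMSO β cells, with 0.45, and had −0.20 in GNF4877 β cells.

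Promoters of the members were read for known sites, from 250 bases before to 50 bases after the transcription start. RefSeq promoters of the rat build GRCr8 were present for 7 of the 10 members, all but *Fos*, *Jun* and *Atf3*, among 33469. Both strands were searched. The cyclic AMP response element TGACGTCA was found in *Jund*, *Ier2* and *Btg2* and in 1.83% of all promoters. Its shorter form TGACG was found in 6 of 7, all but *Fosb*, and in 21.2% of all. Each full element contains TGACG on both strands, so these counts overlap. The Egr site GCGNGGGCG was found in *Jund*, *Btg2* and *Nr4a1* and in 4.98% of all promoters. The CArG box was found in *Egr1* alone of the 7, with 2 matches, and in 1.64% of all promoters. The AP-1 site TGANTCA was found in none of the 7 and in 7.33% of all, and TATAAA in *Fosb* and *Junb* and in 14.2% of all. The 7 promoters are too few for a share, and GC content was above the median of all promoters (51.7%) in 6 of them, from 52.7% to 72.3%, and 47.7% in *Fosb*. GC-rich sites are met more often in such sequence, and no enrichment was tested. The 5 promoters with a full cyclic AMP element, an Egr site or a CArG box are printed below with matches in capitals, *Jund* (chr16:18769722-18770021, minus strand), *Egr1* (chr18:26736828-26737127, plus strand), *Nr4a1* (chr7:134259888-134260187, plus strand), *Ier2* (chr19:40399123-40399422, plus strand) and *Btg2* (chr13:48087641-48087940, minus strand). The shorter form is capitalised as well.

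Jund: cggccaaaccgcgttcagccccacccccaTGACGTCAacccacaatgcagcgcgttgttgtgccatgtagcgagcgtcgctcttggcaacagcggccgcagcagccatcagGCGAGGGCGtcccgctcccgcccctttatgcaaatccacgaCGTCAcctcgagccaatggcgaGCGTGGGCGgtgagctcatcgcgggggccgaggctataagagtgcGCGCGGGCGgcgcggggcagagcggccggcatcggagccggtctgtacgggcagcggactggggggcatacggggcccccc
Egr1: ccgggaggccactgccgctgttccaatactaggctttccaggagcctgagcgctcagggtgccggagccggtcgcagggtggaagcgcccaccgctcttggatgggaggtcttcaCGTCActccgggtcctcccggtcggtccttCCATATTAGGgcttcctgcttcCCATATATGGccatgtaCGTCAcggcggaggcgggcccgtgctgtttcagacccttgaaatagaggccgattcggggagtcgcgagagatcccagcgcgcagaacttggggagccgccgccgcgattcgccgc
Nr4a1: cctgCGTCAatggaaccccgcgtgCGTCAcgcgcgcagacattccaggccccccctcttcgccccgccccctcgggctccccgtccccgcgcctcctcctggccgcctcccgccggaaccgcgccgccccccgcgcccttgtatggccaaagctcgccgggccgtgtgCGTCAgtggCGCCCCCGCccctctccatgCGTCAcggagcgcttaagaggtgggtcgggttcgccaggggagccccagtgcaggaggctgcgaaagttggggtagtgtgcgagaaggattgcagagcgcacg
Ier2: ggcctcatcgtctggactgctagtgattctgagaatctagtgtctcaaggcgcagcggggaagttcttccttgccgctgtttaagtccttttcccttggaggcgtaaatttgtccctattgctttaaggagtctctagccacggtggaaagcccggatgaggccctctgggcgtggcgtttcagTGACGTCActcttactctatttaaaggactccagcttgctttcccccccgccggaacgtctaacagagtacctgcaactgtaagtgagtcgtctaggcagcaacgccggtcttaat
Btg2: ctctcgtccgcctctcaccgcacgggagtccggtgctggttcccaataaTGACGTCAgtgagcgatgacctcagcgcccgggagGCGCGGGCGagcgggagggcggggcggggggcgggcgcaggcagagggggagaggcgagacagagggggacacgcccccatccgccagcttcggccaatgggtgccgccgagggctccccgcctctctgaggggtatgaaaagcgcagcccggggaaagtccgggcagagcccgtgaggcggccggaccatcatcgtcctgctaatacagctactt

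In sum, a median of 8 of the 10 genes was read per DMSO β cell, and all 10 in 9 of 56. Among the 4 groups compared each gene had its highest mean in the 5 DMSO α cells and a lower mean in GNF4877 α cells, though *Ier2*, *Nr4a1* and *Junb* each rested largely on 1 DMSO α cell. Without that cell the means of *Ier2* and *Nr4a1* in DMSO α cells were below those in DMSO β cells, and *Junb* differed little between the α groups by mean. Of all genes compared, 30.1% had a higher mean in DMSO α than in DMSO β cells, and 56.1% a higher mean in GNF4877 than in DMSO α cells. The share of all genes with their highest mean in DMSO α cells was not computed. The 22 DMSO cells with both hormones, outside these groups, had a higher mean than DMSO α cells for *Junb* and *Nr4a1* and a lower one for the other members. In β cells *Jund* alone was 2-fold or more lower with GNF4877 by mean RPM, 1 of 10 members beside 18.3% of all genes, and by mean logs 4 of 10 beside 21.1%. All 10 were read in a smaller share of GNF4877 β cells, as were 75.1% of all genes, and 3 of them by 20 points or more, beside 21.5%. After thinning to equal depth 9 of 10 members and 80.2% of all genes were read in a smaller share. Treatment and chip cannot be told apart.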

How the data were processed

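Values were the deposited RPM of the authors, reads of a transcript scaled to a fixed total of mapped reads in a cell, not divided by transcript length. The submitters' processing notes name CASAVA 1.8.2, BWA 0.5.9 and SAMtools 0.1.19. The methods name a mouse transcriptome, while the transcripts listed are rat RefSeq transcripts. The floor of 0.01 (69.7% of values) was set to 0, and transcripts of a symbol were summed. All 170 columns belonged to a sample. Values moved in whole-read steps (100% of values up to 20 reads within 0.1 of a whole read), so reads were recovered for Poisson intervals and for thinning to 100000 reads on listed transcripts, with cells below that left out.

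Groups were compared as log2 of the ratio of mean RPM + 1, for genes with a mean of at least 1 RPM in either group. A ratio of 2-fold or more was counted, without a test, and the pseudocount shrinks the ratios of low genes. Shares of cells have exact binomial 95% intervals. The methods state that ports seen to hold 1 cell were used. No further removal of doublets was made here, and cells with both hormones entered no β or α group. Correlations are Spearman rho of RPM.

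The lists of other immediate early genes, upstream kinases and factors, and heat shock genes were chosen with earlier results of these data known. Genes were named by rule, all members, the 10 genes most alike to the members in each β group, and the 3 highest and 3 lowest of each list between β groups.

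Alternatives fixed beforehand were pseudocounts of 0.1 and 10 RPM, the difference of mean log2(RPM + 1), a minimum mean of 10 RPM or none, a hormone minimum of 10000 RPM, leaving out cells with *Sst* or *Ppy*, the highest transcript of a symbol, thinning, a threshold of 10 RPM, Pearson correlation, leaving out cells with a *Ccnb1* read, and leaving out each cell in turn. Chosen after the data were seen were leaving out cells with under 20% of reads on listed transcripts, scaling to those reads, partial correlation given genes read, and the alternatives for GNF4877 α cells. The ratio and correlation steps were run on simulated data with known answers. The simulated counts for the ratios had Poisson noise only, without the further spread between cells seen here. This run therefore checked the computation and not how stable the values of these cells are. The scripts ran under Python 3.11.15 with scipy 1.17.1 for intervals and ranks, pandas 2.3.3 for tables, matplotlib 3.10.9 for figures and numpy 2.4.6.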

Additional observations from a re-analysis of the deposited data

Results flagged for a closer look

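Of 10 groups of values checked for a single far value (each member in the 5 DMSO α cells), 2 had one, and for normally spread values chance marks about 1 in 20 groups. These values are skewed with many zeros, and the rate for them was not tested. *Ier2* was 72.3 RPM in DMSO α cell 33 and at most 1.39 RPM in the other 4, so its mean there is that of a single cell, which also carried *Sst*. *Nr4a1* was 382 RPM in DMSO α cell 94 and at most 35.7 RPM in the other 4. Both cells were kept, and ratios without them are given.

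The 22 DMSO cells with both hormones belong to no group compared. All 10 members had a higher median in them than in DMSO β cells, for example *Fos* at 768 against 123 RPM, *Egr1* at 361 against 11.5 RPM and *Btg2* at 1204 against 299.7 RPM. The share of all genes with a higher median was not computed. These cells also had more genes read, a median of 9093.5 against 8809 in DMSO β cells. The methods state that ports seen to hold 1 cell were used, and no test for doublets from the values was made here.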

How the results depend on the processing

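The main results gave 117 values under the alternatives, of which 17 moved past the limits set for this section. The other 100 also differed in places, such as the median log2 ratio of the members between β groups from −0.45 to −0.90 by mean logs, and the median members read after thinning from 8 to 6 and from 6 to 4. Of 100 log2 ratios of single members between β groups 17 moved, with other signs for *Jun*, *Ier2* and *Btg2*, and of 120 shares of single members 31 moved.

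The count of members 2-fold or more apart between GNF4877 and DMSO β cells (1) was 0 with a pseudocount of 10 RPM, 4 with the difference of mean logs, 2 with a hormone minimum of 10000 RPM and 0 with scaling to listed transcripts. It was 1 to 2 with each cell left out in turn, where *Nr4a1* was gained without GNF4877 cell 14 and *Atf3* without cell 64. The log2 ratio of *Jund* was −1.27 to −1.11 with each cell left out. *Jund* fell short of 2-fold with the pseudocount of 10 RPM and with the scaling.

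The count for α over β cells in GNF4877 (2) was 1 with a pseudocount of 10 RPM, 1 with the difference of mean logs, 1 with a minimum mean of 10 RPM, 3 with a pseudocount of 0.1 RPM and 2 to 4 with each cell left out. By mean logs it was 1 higher (*Jun*) and 0 lower in place of 0 and 2. *Jun*, at a log2 ratio of 0.98, passed 2-fold in each case above 2.

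The count for GNF4877 over DMSO α cells (10) was 9 with a pseudocount of 10 RPM and 8 to 10 with each cell left out. Without cells carrying *Sst* or *Ppy* it was 8 of the 9 members that then passed the minimum mean. *Junb*, at 2.01-fold, was lost most often.

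The count for DMSO α over DMSO β cells (9 higher, 0 lower) was 7 and 1 without cell 94, 9 and 1 without cells carrying *Sst* or *Ppy*, and 8 and 0 with a pseudocount of 10 RPM.

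The median share of cells with a read of a member, 76.8% in DMSO β cells, was 58.3% after thinning and 52.7% at 10 RPM or more. In GNF4877 β cells 56.9% became 33.3% and 30.2%. The order of the treatments was the same.

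The median rho of the members in DMSO β cells (0.35) was 0.19 after thinning and 0.18 given genes read. In GNF4877 α cells (0.32) it was 0.21 without cells carrying *Sst* or *Ppy* and 0.20 to 0.35 with each cell left out. What moved these values was not tested.

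No paired analysis was possible, since the design names 1 sample for DMSO and 1 for GNF4877, with no animal or culture linking them.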

Other observations

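The 22 DMSO cells with both hormones had a median of 10 members read (8 to 10), and 13 of them had all 10. Their median number of genes read was 9093.5. The 1 GNF4877 cell with both hormones had 7 members.

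The 3 DMSO cells with neither hormone had 4 to 10 members and the 7 GNF4877 cells with neither had 3 to 9.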
